A study of Mus musculus with 27 samples.

Results

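Sites of FLAG-tagged ACLY that carried exactly 1 of the histone marks H3K27ac and H3K9ac in hepatocytes after hypoxia-reperfusion (HR) are described here. ACLY, ATP citrate lyase, makes acetyl-CoA from citrate outside mitochondria, and the series compared wild-type (WT) and Acly-deficient mouse liver and hepatocytes under injury. A peak of the WT HR ACLY-FLAG list was a member if it shared at least 1 base with a peak of exactly 1 of the WT HR H3K27ac and WT HR H3K9ac lists. The members were thus chosen by these 3 peak lists, and which mark they carry in WT HR is no finding. Of 3666 ACLY-FLAG peaks, 611 were members (16.7%, 95% interval 15.5 to 17.9): 268 met H3K27ac alone (7.31%) and 343 met H3K9ac alone (9.36%). A further 1489 met both marks and 1566 met neither.

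The KO HR cells were primary hepatocytes labelled AclyKO, from Alb-cre:Aclyf/f mice by the series' design text, in which the albumin promoter drives Cre and so removes the floxed part of Acly in hepatocytes. The WT HR and WT normoxia cells were primary hepatocytes of genotype WT. Cells were moved to normoxia or HR 24 hours after isolation. Peak lists do not measure Acly RNA, so the loss of Acly was not checked here. CUT&RUN, in which an antibody directs DNA cutting to the sites of its target, was run with antibodies to H3K27ac and H3K9ac in KO HR, WT HR and WT normoxia cells, and with an antibody to the FLAG tag in WT HR and WT normoxia cells. The sources used here do not say how tagged ACLY was brought into the cells. No ACLY-FLAG list of KO cells and none of the 3 IgG samples was analysed here. Each antibody and condition had 1 library, so no difference between conditions could be tested. Intervals are 95% Wilson intervals for shares and order-statistic intervals for medians. They cover counting error over peaks of 1 library, which are not replicates, and not the spread between cultures.

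Acetylation of histone tails loosens chromatin and uses acetyl-CoA as its donor, which in hepatocytes comes in part from ACLY. H3K9ac is known mainly from the starts of active genes, while H3K27ac marks active gene starts and active enhancers alike. Hepatocytes are known for enhancers that keep genes of plasma proteins and of lipid, sugar and drug metabolism active. In the cells used here, a list of hepatocyte markers that includes Alb and Hnf4a had H3K27ac at the start of 13 of 15 genes in KO HR, 13 in WT HR and 11 in WT normoxia. Macrophage markers had it at 1 of 10 genes in each of these lists, endothelial markers at 1 of 10 in each, and stellate cell markers at 0 of 10 in each. Bile duct markers had it at 2 of 10 in KO HR, 1 in WT HR and 1 in WT normoxia. A high count was not particular to hepatocyte markers, as 20 of 20 listed ribosomal protein genes had H3K27ac in WT HR. WT HR H3K9ac was at 10 of 15 hepatocyte, 1 of 10 macrophage, 0 of 10 endothelial, 0 of 10 stellate cell and 2 of 10 bile duct markers. The part of other cell types in the results was not tested.

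The 2 groups occupied different parts of genes. Of the H3K27ac-only peaks, 19.4% (52 of 268, interval 15.1 to 24.6) lay within 1 kb of the start of a coding gene, against 88.3% (303 of 343, 84.5 to 91.3) of the H3K9ac-only peaks. The share over all ACLY-FLAG peaks was 51%, and peaks with both marks stood at 75.9% (73.7 to 78.0). H3K27ac-only peaks were most often elsewhere in a gene (46.3%, 40.4 to 52.2) or between genes (34.3%, 28.9 to 40.2), and H3K9ac-only peaks rarely so (8.45% and 3.21%). The median distance to the nearest coding gene start was 14108 bp for H3K27ac-only peaks (quartiles 3342.5 and 41039) and 0 bp for H3K9ac-only peaks. More than 10 kb from any start lay 59.0% of the H3K27ac-only peaks and 4.08% of the H3K9ac-only peaks. Of the peaks with neither mark, 24.6% (22.5 to 26.8) were at a gene start, 29.8% (27.5 to 32.1) elsewhere in a gene and 45.7% (43.2 to 48.1) between genes, so H3K27ac-only peaks lay more often within genes and less often between them. With strand-aware starts alone and chromosome 18 left out, the shares at a start were 16.4% of 262 H3K27ac-only and 75.6% of 332 H3K9ac-only peaks.

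**Figure D1:**
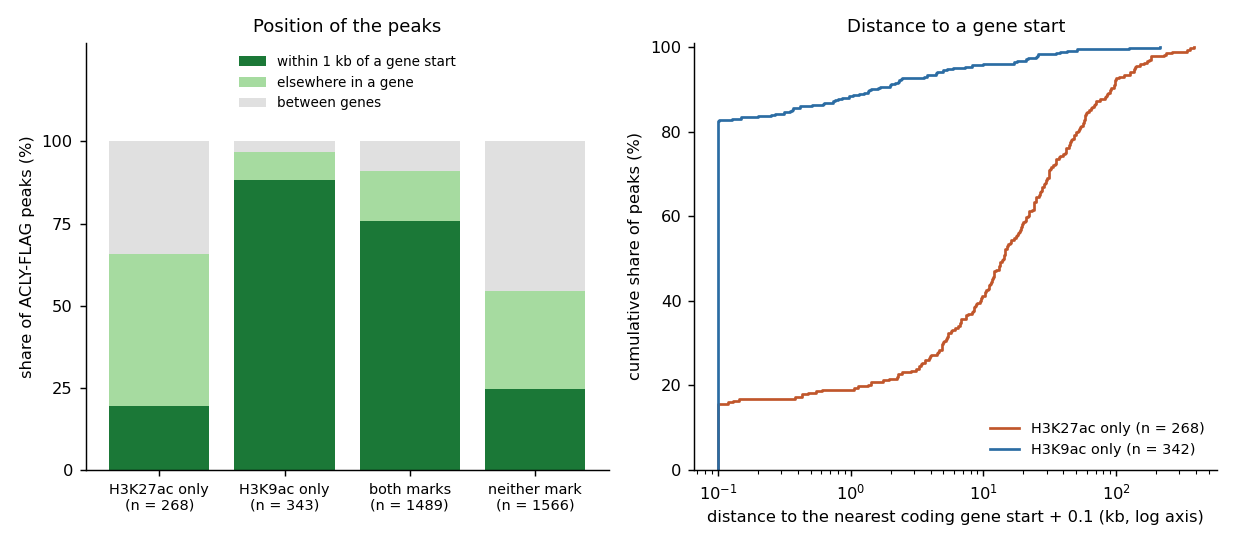
Left, share of ACLY-FLAG peaks of each class (percent, y axis) within 1 kb of a coding gene start, elsewhere in a gene or between genes. Right, cumulative share of the H3K27ac-only and H3K9ac-only peaks (y axis) by distance to the nearest coding gene start plus 0.1 kb (log x axis), where 15.7% of the H3K27ac-only and 82.2% of the H3K9ac-only peaks hold a start and so sit at the left edge, and 1 H3K9ac-only peak on a contig without coding genes is not drawn.

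The sequences before 3 starts of each group show how these promoters differ, since CpG-rich starts are typical of broadly used genes and CpG-poor ones of tissue-restricted genes. They are the 200 bases before the start, 5′ to 3′ on the gene's strand, for the member peaks of highest total signal that hold the start of a gene with a promoter sequence in RefSeq (GRCm38.p6, the assembly named mm10). Capitals mark CpG dinucleotides. The first 3 belong to the H3K27ac-only group: Thrsp (chr7:97417551-97417750, minus strand), which encodes a nuclear regulator of fat synthesis in liver, Pex7 (chr10:19907675-19907874, minus strand), the receptor that brings a class of enzymes into peroxisomes, and Slc25a48 (chr13:56438155-56438354, plus strand), of the mitochondrial carrier family. The other 3 belong to the H3K9ac-only group: Etnk2 (chr1:133363372-133363571, plus strand), an ethanolamine kinase of phospholipid synthesis, Ezh2 (chr6:47595031-47595230, minus strand), the enzyme of Polycomb complex 2 that methylates histone H3 at lysine 27, and Agbl5 (chr5:30888652-30888851, plus strand), a carboxypeptidase that trims glutamate from tubulin.
Thrsp: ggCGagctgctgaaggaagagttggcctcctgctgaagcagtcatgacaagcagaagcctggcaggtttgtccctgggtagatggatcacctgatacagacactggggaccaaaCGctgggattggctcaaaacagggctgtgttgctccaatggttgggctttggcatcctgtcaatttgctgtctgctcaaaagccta
Pex7: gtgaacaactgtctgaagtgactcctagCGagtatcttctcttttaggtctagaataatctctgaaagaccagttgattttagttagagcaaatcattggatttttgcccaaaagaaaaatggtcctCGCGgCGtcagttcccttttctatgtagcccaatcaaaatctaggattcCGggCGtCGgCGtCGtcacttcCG
Slc25a48: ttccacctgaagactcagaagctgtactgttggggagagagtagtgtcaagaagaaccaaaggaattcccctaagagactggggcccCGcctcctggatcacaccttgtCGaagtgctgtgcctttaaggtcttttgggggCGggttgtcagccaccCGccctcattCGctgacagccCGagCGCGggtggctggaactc
Etnk2: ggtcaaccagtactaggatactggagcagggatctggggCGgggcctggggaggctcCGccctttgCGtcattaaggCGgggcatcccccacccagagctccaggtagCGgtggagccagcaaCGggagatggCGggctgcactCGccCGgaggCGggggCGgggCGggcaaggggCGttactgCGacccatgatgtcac
Ezh2: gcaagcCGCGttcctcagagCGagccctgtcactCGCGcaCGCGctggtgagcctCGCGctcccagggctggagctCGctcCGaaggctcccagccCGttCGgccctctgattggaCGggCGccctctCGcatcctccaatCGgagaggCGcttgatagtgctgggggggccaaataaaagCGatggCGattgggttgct
Agbl5: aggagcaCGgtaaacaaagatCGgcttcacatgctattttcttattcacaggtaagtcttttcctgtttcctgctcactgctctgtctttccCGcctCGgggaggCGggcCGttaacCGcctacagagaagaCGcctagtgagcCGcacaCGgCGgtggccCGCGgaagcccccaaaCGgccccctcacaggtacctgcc
The printed stretches hold 2, 10 and 8 CpG for Thrsp, Pex7 and Slc25a48, against 14, 20 and 14 for Etnk2, Ezh2 and Agbl5.

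Over all members at a start, the 300 bases from 250 before to 50 after the start held a median of 16 CpG in the H3K27ac-only group (60 starts of 46 genes, interval of the median 11 to 23) and 25 CpG in the H3K9ac-only group (329 starts of 285 genes, 24 to 27). The median over all 21262 listed coding gene starts was 13, that of starts under peaks with both marks was 25 and that with neither was 21. Fewer than 10 CpG were found at 31.7% of the H3K27ac-only starts (21.3 to 44.2), against 4.86% of the H3K9ac-only starts (3.02 to 7.75) and 43.3% of all starts. The GC box GGGCGG, searched on both strands, occurred in 51.7% of the H3K27ac-only windows (39.3 to 63.8), 74.8% of the H3K9ac-only windows (69.8 to 79.2) and 46.2% of all windows. The TATA box TATAAA occurred in 8.33%, 4.26% and 12.6% in the same order, the box CCAAT in 53.3%, 50.5% and 38.2%, the E-box CACGTG in 11.7%, 13.1% and 7.84%, the ETS core CCGGAA in 25%, 33.7% and 18.7%, and the AP-1 core TGACTCA in 5%, 3.04% and 4.66%. All were searched on both strands, the GC box, E-box and ETS core each contain a CpG, and no motif contains another. Such a match describes letters in a window and not a bound site, and several starts of a gene share bases.

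**Figure D2:**
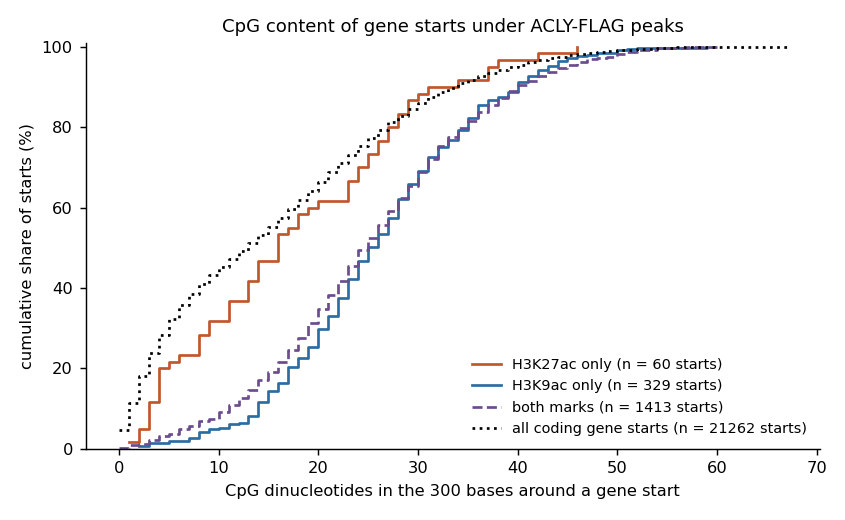
Cumulative share of gene starts (percent, y axis) by the number of CpG dinucleotides in the 300 bases around the start (x axis), for starts under H3K27ac-only, H3K9ac-only and both-mark ACLY-FLAG peaks and for all listed coding gene starts. The H3K27ac-only curve (median 16) lies near that of all starts (median 13), and the H3K9ac-only curve runs with that of both marks (median 25 each).

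Where a member lay at a start with known strand, its highest point was more often upstream of the start than not. This held for 60.5% of the H3K27ac-only and 76.1% of the H3K9ac-only peaks. Of the H3K27ac-only peaks, 25 of 43 (58.1%, 43.3 to 71.6) had their maximum within 250 bp of the start, against 205 of 251 H3K9ac-only peaks (81.7%, 76.4 to 86.0). The share was 69.9% for peaks with both marks and 75.6% for peaks with neither, each with a median offset of -50 bp. The median offset was -42 bp for the H3K27ac-only group (quartiles -113.5 and 406) and -56 bp for the H3K9ac-only group (-113.5 and -5). The upper quartile of the H3K27ac-only peaks thus reached into the gene, and that of the H3K9ac-only peaks did not.

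**Figure D3:**
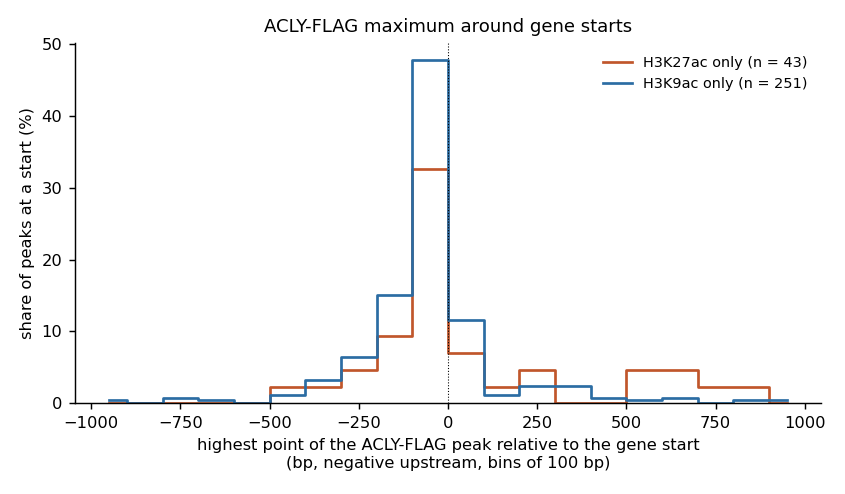
Share of member peaks at a stranded gene start (percent, y axis) by the distance of the ACLY-FLAG maximum from that start (bp, x axis, negative upstream, bins of 100 bp), with 9 H3K27ac-only and 11 H3K9ac-only peaks that lie 1 kb or more away not drawn. Both groups have their mode just upstream, and 58.1% of the H3K27ac-only peaks lie within 250 bp, against 81.7% of the H3K9ac-only peaks.

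The strongest member of the H3K27ac-only group spanned the start of Thrsp at chr7:97412911-97419860 (6950 bp), above 99.9% of ACLY-FLAG peaks by the authors' total signal. Its H3K27ac peak was 11590 bp wide and the nearest WT HR H3K9ac peak lay 10380 bp away, yet both marks were listed there in KO HR and in WT normoxia. Next at a start by signal were Pex7 (chr10:19906101-19909720) and Tpst2 (chr5:112289071-112291170), a Golgi enzyme that sulfates tyrosines. Pex7 kept H3K27ac alone in KO HR and had neither mark in WT normoxia. Tpst2 kept H3K27ac alone in KO HR and had both marks in WT normoxia. In WT HR it lay in an H3K27ac domain of 27600 bp that also met H3K9ac, with the nearest H3K9ac peak 2940 bp away. Slc25a48 (chr13:56438031-56439370) had neither mark in KO HR or in WT normoxia, so that WT HR was the single condition with a listed mark. Albfm1 (chr5:90559991-90563380), a gene of the albumin family, and Ogdh (chr11:6291061-6292970), a subunit of the 2-oxoglutarate dehydrogenase of the citric acid cycle, held H3K27ac alone in KO HR, WT HR and WT normoxia. Gna12 (chr5:140828161-140832070), a G protein subunit, lay in a domain of 44590 bp that also met H3K9ac 26310 bp from the peak, and had both marks in KO HR and WT normoxia. The remaining 3 of the 10 starts were Tnfaip8l1 (chr17:56161831-56164940), the histone genes H2bc3 and H3c3 (chr13:23744981-23747160) and Mon1b (chr8:113634431-113635870), which acts in endosome maturation.

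Away from starts, the H3K27ac-only peaks of highest signal lay inside genes or between them. The peak at chr8:13480991-13483090 was 11445 bp from the nearest start, that of Gas6, a ligand of receptor kinases that clear dying cells. The peak at chr6:134206031-134209380 was 170331 bp from the start of Etv6, an ETS transcription factor. Both held H3K27ac alone in KO HR, WT HR and WT normoxia. The peak at chr10:89632311-89635360, 3360 bp from the start of Scyl2, had both marks in KO HR and WT normoxia. The peak at chr1:74339841-74341850, 7231 bp from the start of Pnkd, had no mark in KO HR and H3K27ac in WT normoxia. Distance names no target gene of such a region.

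Among the 10 strongest H3K9ac-only peaks at starts, Etnk2 (chr1:133360771-133365510) ranked above 97.1% of ACLY-FLAG peaks and had both marks in KO HR and H3K9ac alone in WT normoxia. Ezh2 (chr6:47594271-47595610), Rae1 (chr2:172999561-173000900), an mRNA export factor, and Lsm14b (chr2:180024471-180025500), which binds RNA, had H3K9ac alone in KO HR, WT HR and WT normoxia. The same state was found at Zcchc17 with Snrnp40 (chr4:130358611-130360620), at Tbc1d10b (chr7:127207331-127209690), which regulates Rab proteins, and at Sprtn with Exoc8 (chr8:124896801-124898370), a protease of DNA repair and a subunit of the exocyst. Agbl5 (chr5:30887121-30889710) met H3K27ac beside H3K9ac in KO HR, and so did Adamts6 (chr13:104285641-104288820), a secreted metalloproteinase whose strand was not given. The last of the 10, the shared start region of Tmc6 and Tmc8 (chr11:117779451-117782540), had no mark in KO HR and none in WT normoxia.

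Of the H3K9ac-only peaks away from starts, the highest was chr17:13324331-13333140, the widest of all members at 8810 bp and 21432 bp from the start of Tcp10c, with H3K9ac in WT normoxia and no mark in KO HR. The peaks at chr3:93446621-93448270 near Tchh and chr8:20577131-20579670 near Gm40469 had H3K9ac alone in KO HR and WT normoxia. The peaks 1150 bp from the start of Onecut1 (chr9:74863071-74866470), a hepatocyte transcription factor, and 2048 bp from that of Thada (chr17:84461551-84464160) had no mark in KO HR and H3K9ac in WT normoxia.

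Some members lay at genes of the pathway lists. Members at a start named 56 genes in the H3K27ac-only group (0.256% of 21883 coding genes) and 356 in the H3K9ac-only group (1.63%), with none in common. Among 18 genes of fatty acid synthesis, Thrsp was in the H3K27ac-only group, and Elovl5 (chr9:77918071-77920900), a fatty acid elongase, and Srebf1 (chr11:60208611-60210370), the factor that drives lipogenic genes, were in the H3K9ac-only group. Of the 18, 5 had an ACLY-FLAG peak with both marks at a start and 7 had any, so a named gene also counts under both marks. Of 22 cholesterol synthesis genes, Mvd (chr8:122442351-122443770), an enzyme of the mevalonate pathway, was H3K9ac-only. Complement and coagulation genes had F5 (chr1:164151821-164153600) as H3K27ac-only and F10 (chr8:13036341-13037620) as H3K9ac-only of 24, both coding for clotting factors. Relb (chr7:19627901-19629880), a subunit of NF-kB (1 of 15 listed), and Hspa1b (chr17:34958801-34960270), a heat shock chaperone with a near-identical neighbouring copy (1 of 14), were H3K27ac-only. Kdm3a (chr6:71632461-71633670), a hypoxia-induced histone demethylase (1 of 20), Hdac2 (chr10:36973741-36975840), a histone deacetylase (1 of 20), and Sox9 (chr11:112781421-112782660), a bile duct factor (1 of 10), were H3K9ac-only. Of 20 cell cycle genes, 0 were H3K27ac-only and 3 were H3K9ac-only: Ccne2 (chr4:11190691-11191990), a cyclin of S phase entry, Mcm5 (chr8:75108961-75110000), a subunit of the replicative helicase, and Aurka (chr2:172370191-172371390), a mitotic kinase gene that shares its start region with Cstf1. None of these 20 genes had WT HR H3K27ac at its start and 6 had H3K9ac. Both groups had 0 members at the lists of hepatocyte markers, hepatocyte transcription factors, immediate early genes, NRF2 targets, endoplasmic reticulum stress, acetyl-CoA supply, fatty acid oxidation, bile acids, cytochrome P450, acute phase, ribosomal proteins, respiratory chain, DNA repair, and macrophage, endothelial and stellate cell markers. These lists are short beside the shares of 0.256% and 1.63% over all coding genes, so a count of 0 says little about them. Of the 15 hepatocyte markers, 5 had an ACLY-FLAG peak at the start, all with both marks. All 4 H3K27ac-only genes of the lists met H3K27ac in KO HR, and Thrsp, F5 and Hspa1b also met H3K9ac there. Of the 10 H3K9ac-only genes, Srebf1 and Ccne2 met H3K9ac alone in KO HR, Kdm3a and F10 met H3K27ac alone, Sox9, Hdac2 and Aurka met both marks, and Elovl5, Mvd and Mcm5 met neither. For Sox9, Relb and Ccne2 the strand was not given, so the member lies at an end of the gene that may not be its start.

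H3K9ac-only peaks were the narrower group over all positions and at gene starts, and had the higher median width away from starts. The median width was 1770 bp for H3K27ac-only peaks (interval 1670 to 1820, range 490 to 6950) and 1490 bp for H3K9ac-only peaks (1420 to 1580, range 450 to 8810), against 1700 bp with both marks and 1815 bp with neither. Among peaks at a gene start the medians were 1785 bp for H3K27ac-only and 1480 bp for H3K9ac-only, and away from starts 1770 bp and 2025 bp (40 H3K9ac-only peaks). Peaks with both marks had 1680 bp at starts and 1790 bp away from them, and peaks with neither 1510 bp and 1920 bp. At starts the H3K9ac-only width was thus near that of peaks with neither mark. By total signal over all positions the intervals of the groups overlapped: the median percentile within the ACLY-FLAG list was 47.4 for H3K27ac-only (42.0 to 52.7) and 49.9 for H3K9ac-only (45.0 to 54.5), below the 58.1 of peaks with both marks (56.0 to 60.7). The highest 10% of the list held 20 H3K27ac-only peaks (7.46%) and 24 H3K9ac-only peaks (7.00%), against 12.8% of the peaks with both marks. By maximum signal the H3K9ac-only peaks stood higher, with a median percentile of 51.3 for H3K27ac-only and 59.8 for H3K9ac-only. Split by position, the order by total signal stayed, and the order by maximum signal turned round away from starts alone. At gene starts the medians by total signal were 46.2 for H3K27ac-only and 48.9 for H3K9ac-only, and by maximum signal 50.5 and 61.3. Away from starts they were 47.5 for H3K27ac-only and 62.3 for the 40 H3K9ac-only peaks by total signal, and 52.1 for H3K27ac-only and 43.5 for H3K9ac-only by maximum signal.

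**Figure D4:**
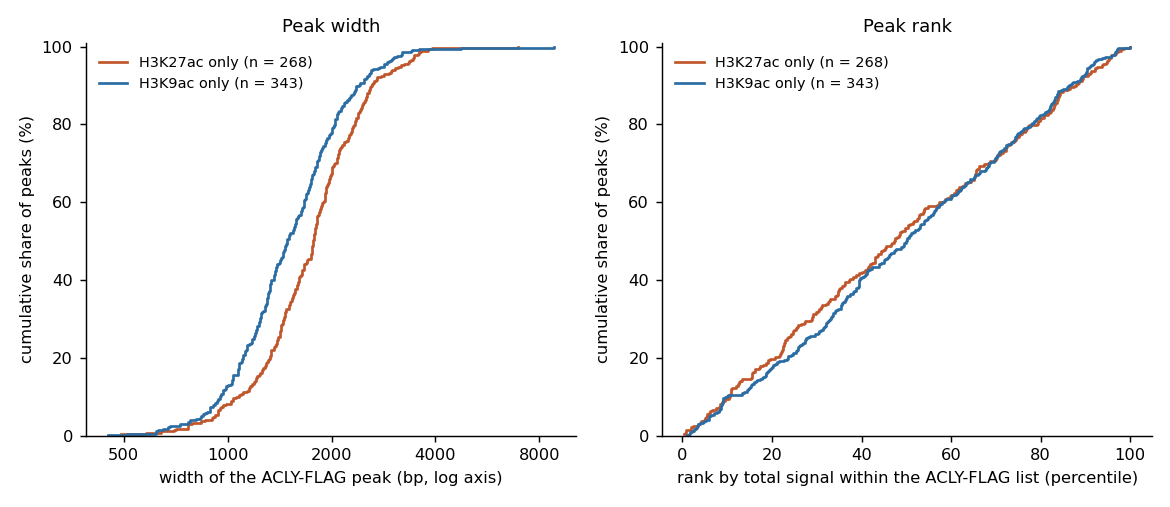
Cumulative share (percent, y axes) of the H3K27ac-only and H3K9ac-only peaks by width (bp, log x axis, left) and by percentile of total signal within the ACLY-FLAG list (right). The H3K27ac-only curve (median 1770 bp) lies right of the H3K9ac-only curve (median 1490 bp) for width, and the curves run together for rank.

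The acetylation peaks beneath the members differed as well. The 268 H3K27ac-only peaks fell on 259 H3K27ac peaks with a median width of 9220 bp, against 7410 bp over the H3K27ac list, and a median percentile of 54.6 in that list (47.2 to 60.4). The 343 H3K9ac-only peaks fell on 335 H3K9ac peaks with a median width of 5540 bp, against 6400 bp over the H3K9ac list, and a median percentile of 28.2 (25.2 to 32.1). Most members lay wholly inside the acetylation peak, 85.1% of the H3K27ac-only and 88.0% of the H3K9ac-only group. The highest point of the acetylation peak fell inside the ACLY-FLAG peak for 48.1% of the H3K27ac-only and 71.1% of the H3K9ac-only peaks. For 32.5% of the H3K27ac-only peaks (27.1 to 38.3) the same H3K27ac domain met H3K9ac at another place, against 64.5% of all H3K27ac peaks. The H3K9ac peak met H3K27ac elsewhere for 7.00% of the H3K9ac-only peaks (4.75 to 10.2), against 74.3% of all H3K9ac peaks, and the rule itself lowers both member shares. The missing mark was a median of 16885 bp away for H3K27ac-only peaks and 36025 bp away for H3K9ac-only peaks. At the border of the rule, the member with the least overlap shared 10 bp with H3K27ac and 80 bp with H3K9ac. The nearest peak without either mark lay 20 bp from H3K27ac and 100 bp from H3K9ac, and the missing mark came as near as 10 bp in each group.

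In KO HR, H3K27ac was listed at most H3K27ac-only peaks, and was listed at many H3K9ac-only peaks that lacked it in WT HR. A KO HR H3K27ac peak met 91.4% of the H3K27ac-only peaks (245 of 268, 87.5 to 94.2) and 58.0% of the H3K9ac-only peaks (199 of 343, 52.7 to 63.1), against 58.4% of all ACLY-FLAG peaks, 98.4% of those with both marks and 14.8% of those with neither. The share at H3K9ac-only peaks was thus near that of the whole list. A KO HR H3K9ac peak met 29.5% of the H3K27ac-only peaks (79 of 268, 24.3 to 35.2) and 73.2% of the H3K9ac-only peaks (251 of 343, 68.3 to 77.6), against 48% of all, 90.9% of those with both marks and 4.85% of those with neither. By class, 61.9% of the H3K27ac-only peaks kept H3K27ac alone in KO HR, 29.5% had both marks, 8.58% had neither and none had H3K9ac alone (0 of 268, Wilson upper bound 1.41%). Of the H3K9ac-only peaks, 25.4% kept H3K9ac alone, 47.8% had both marks, 10.2% had H3K27ac alone and 16.6% had neither.

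The KO lists were not made like the WT lists. Their coordinates lie off the 10 bp grid of the WT lists (0.943% of KO H3K27ac and 1.01% of KO H3K9ac peaks on it, against 100% of WT HR H3K27ac peaks), and KO H3K27ac has 14418 peaks over 81.0 Mb, against 8252 over 87.5 Mb in WT HR. KO H3K9ac has 8837 peaks over 30.3 Mb, against 7593 over 57.8 Mb. When each KO list was limited to as many peaks as its WT list, H3K27ac met 77.6% of the H3K27ac-only peaks (72.3 to 82.2) and 7.58% of the H3K9ac-only peaks (5.23 to 10.9), against 44.0% of all ACLY-FLAG peaks. The KO H3K27ac peaks at H3K9ac-only members stood at a median percentile of 21.0 by signal in the full KO list, against 70.3 for the KO H3K27ac peaks at H3K27ac-only members. KO H3K9ac limited to the length of its WT list met 20.9% of the H3K27ac-only and 59.8% of the H3K9ac-only peaks. Genotype and the making of the lists cannot be told apart here.

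**Figure D5:**
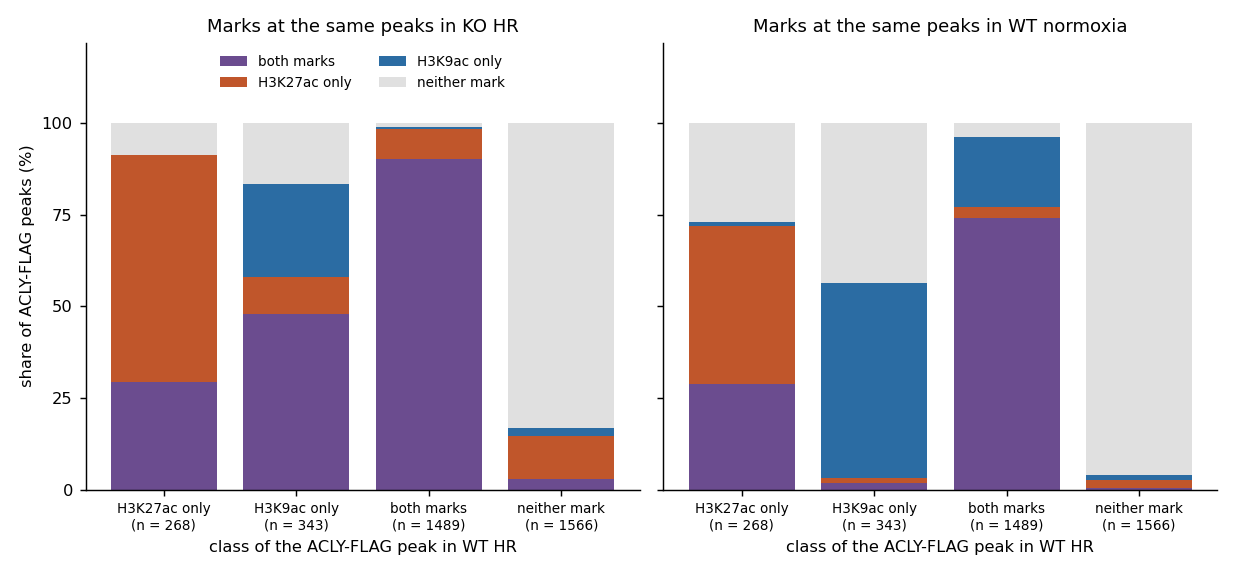
Share of the ACLY-FLAG peaks of each WT HR class (x axis) that met both marks, H3K27ac alone, H3K9ac alone or neither (percent, y axis) in KO HR (left) and WT normoxia (right), 1 library per mark and condition. The H3K27ac-only peaks met both marks at 29.5% in KO HR and 28.7% in WT normoxia, and the H3K9ac-only peaks at 47.8% in KO HR and 1.75% in WT normoxia. The full lists differ in length, with 14418 H3K27ac peaks in KO HR and 5655 in WT normoxia, and 8837 and 6513 for H3K9ac.

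At gene starts, the missing mark was listed in KO HR at 20 of 52 H3K27ac-only peaks (38.5%, 26.5 to 52.0) and 179 of 303 H3K9ac-only peaks (59.1%, 53.5 to 64.5). Over all ACLY-FLAG peaks at starts, KO HR H3K9ac was listed at 74.97% and KO HR H3K27ac at 77.3%. That list includes starts under peaks with both marks (95.6% and 98.8%), while members were chosen to lack the mark in WT HR. At starts under peaks with neither mark the shares were 17.7% for KO HR H3K9ac and 26.0% for KO HR H3K27ac, below those of the members. Away from starts the missing mark was listed at 27.3% of the H3K27ac-only peaks, against 19.9% of all such peaks for KO HR H3K9ac. It was listed at 50% of the 40 H3K9ac-only peaks away from starts (35.2 to 64.8), against 38.7% of all such peaks for KO HR H3K27ac. The order of the groups depended on the KO lists: over all members, with KO lists no longer than the WT lists, the missing mark met 20.9% of the H3K27ac-only and 7.58% of the H3K9ac-only peaks. By signal, the H3K27ac-only starts that held H3K9ac in KO HR were led by Thrsp, Gna12, Mon1b, Eif4enif1, which binds a cap-binding translation factor and shares its region (chr11:3201001-3203520) with Gm51877 and Sfi1, and Zfp446 (chr7:12977151-12978540). The H3K9ac-only starts that held H3K27ac in KO HR were led by Etnk2, Adamts6, Agbl5, Pagr1a with Prrt2 (chr7:127015911-127018940) and Ap2a1 (chr7:44928891-44930660), a subunit of the clathrin adaptor. Pagr1a encodes a partner of histone H3 lysine 4 methyltransferases, and its peak lay 400 bp from WT HR H3K27ac and met that mark in WT normoxia.

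The mark present in WT HR was missing from the KO HR list at 2 of 52 H3K27ac-only starts, Slc25a48 and Tnfaip8l1, and at 69 of 303 H3K9ac-only starts. The strongest of the 69 were Tmc6 with Tmc8, Larp7 with Zgrf1 (chr3:127552851-127554430), S1pr2 (chr9:20976121-20978190), Zfhx2 with Thtpa (chr14:55091091-55093920) and Traf3 (chr12:111163921-111166890). Larp7 binds the 7SK RNA that restrains transcription elongation, S1pr2 is a receptor of sphingosine-1-phosphate, and Traf3 is an adaptor of immune receptors. The Zfhx2 peak, 280 bp from WT HR H3K27ac, held H3K27ac in KO HR, and the other 4 held no mark there. H3K9ac was listed in KO HR at 77.2% (72.2 to 81.6) of the H3K9ac-only starts, near the 74.97% (73.0 to 76.9) of all ACLY-FLAG peaks at starts. The share at starts under peaks with both marks was 95.6% (94.2 to 96.6). At starts under peaks with neither mark, which lacked H3K9ac in WT HR, it was 17.7% (14.2 to 21.8). H3K27ac was listed in KO HR at 96.2% of the H3K27ac-only starts, against 77.3% of all, 98.8% with both marks and 26.0% with neither. The counts of 2 and 69 use the full KO lists, which differ between the marks. Over all members, KO lists no longer than the WT lists held the WT mark at 77.6% of the H3K27ac-only and 59.8% of the H3K9ac-only peaks.

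In WT normoxia the groups also differed. H3K27ac was listed at 72.0% of the H3K27ac-only peaks (66.4 to 77.1) and 3.21% of the H3K9ac-only peaks (1.80 to 5.65), against 38% of all ACLY-FLAG peaks. H3K9ac was listed at 29.9% of the H3K27ac-only peaks (24.7 to 35.6) and 54.8% of the H3K9ac-only peaks (49.5 to 60.0), against 45.9% of all and 93.2% of those with both marks. Neither mark was listed in normoxia at 26.9% of the H3K27ac-only and 43.7% of the H3K9ac-only peaks (38.6 to 49.0), against 48.6% of all ACLY-FLAG peaks and 3.83% of the peaks with both marks. The mark missing in WT HR was listed in both KO HR and normoxia at 28 of 268 H3K27ac-only peaks, in KO HR alone at 51, in normoxia alone at 52 and in neither at 137. For H3K9ac-only peaks the counts were 8 of 343 in both, 191 in KO HR alone, 3 in normoxia alone and 141 in neither. These counts use the full lists, which differ in length. H3K27ac had 14418 peaks in KO HR, 8252 in WT HR and 5655 over 81.5 Mb in WT normoxia. H3K9ac had 8837, 7593 and 6513 peaks in the same order, the last over 61.1 Mb. No list was matched in length to those of normoxia, so a mark missing there may be due to the shorter list. With the KO H3K27ac list no longer than the WT list, 26 of 343 H3K9ac-only peaks met it. The ACLY-FLAG list of normoxia held 1 peak (chr9:2999971-3038540), which met none of the HR peaks, so the members could not be followed in that list.

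Acetylation peaks with a single mark were also compared by whether ACLY-FLAG met them. Of WT HR H3K27ac peaks that met no H3K9ac peak, 28.7% of the 174 with ACLY-FLAG were at a gene start (22.5 to 35.9), against 11.1% of the 2755 without it (9.95 to 12.3), at median widths of 6415 and 6350 bp. KO HR H3K9ac met 42.5% of those with ACLY-FLAG (35.4 to 49.96) and 20.2% of those without (18.7 to 21.7), and KO HR H3K27ac met 97.1% and 95.5%. Of WT HR H3K9ac peaks that met no H3K27ac peak, 94.2% of the 311 with ACLY-FLAG (91.0 to 96.3) and 91.5% of the 1637 without it (89.99 to 92.7) were at a gene start. KO HR H3K27ac met 57.9% (52.3 to 63.2) and 47.3% (44.9 to 49.7) of these, and KO HR H3K9ac 78.1% and 76.1%. The interval with ACLY-FLAG lay above that without it for gene starts and for KO H3K9ac among the H3K27ac peaks and for KO H3K27ac among the H3K9ac peaks, and the intervals overlapped in the other comparisons. These KO shares use the full KO lists and were not computed with KO lists limited in length. They were not split by position, and KO HR H3K9ac met 38.5% of H3K27ac-only members at starts and 27.3% away from starts. The part of position in these differences was not tested.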

How the data were processed

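Peak lists of 8 of the 11 CUT&RUN samples were used, with groups taken from the sample titles, and the 16 RNA samples were not used, since no table used here pairs their transcripts with genes. The authors' deposited lists give for each peak a total and a maximum signal whose scale the sources used here do not give, so signal was ranked inside each list alone. Per the submitters' processing notes the build was mm10. The aligner, the peak caller and the sequencing depth are not given in the sources used here. Overlap meant at least 1 shared base. Gene starts were those of RefSeq GRCm38.p6 for 17491 coding genes with a stranded promoter entry and either end of the gene for the other 4392. The window was 1 kb on each side, and a position "elsewhere in a gene" needed 1 base shared with the gene. Named peaks were the highest by total signal in each group: 10 at a start, 5 away from starts, and up to 5 starts with the missing mark or without the WT mark in KO HR, plus genes of the pathway lists. One of the peaks away from starts is not reported here. The members and lists were chosen with earlier results of these data known. Python 3.11.15, pandas 2.3.3 and scipy 1.17.1 were used, and the overlap code was tested on simulated peaks. No test was run, since each condition had 1 library. Alternatives varied the overlap, list thresholds and lengths, start windows and ranking.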

Additional observations from a re-analysis of the deposited data

How the results depend on the processing

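Of 42 recomputed values of 12 results, 25 stayed within their counting interval, or for counts within 1.5 times, and 17 moved beyond. H3K27ac-only peaks stayed less often at a start, more often with KO HR H3K27ac and less often with KO HR H3K9ac than H3K9ac-only peaks under each alternative run for these results. The order for the mark missing in WT HR was turned round with KO lists no longer than the WT lists, and not with the upper 50% of KO peaks. With the upper 50% of ACLY-FLAG peaks, 125 H3K27ac-only and 171 H3K9ac-only peaks remained, as fewer peaks entered. A start window of 5 kb gave 30.6% of H3K27ac-only and 94.2% of H3K9ac-only peaks at a start. The peak's middle base gave 83.4% and strand-aware starts alone, added after seeing the data and with chromosome 18 left out, 75.6% for H3K9ac-only. Ranked by maximum signal, H3K9ac-only peaks had a median percentile of 59.8. With 50% of the peak covered, KO HR H3K9ac met 63.6% of H3K9ac-only peaks. With KO lists no longer than the WT lists, KO HR H3K27ac met 77.6% of H3K27ac-only and 7.58% of H3K9ac-only peaks, and KO HR H3K9ac 20.9% and 59.8%. The missing mark was then more frequent at H3K27ac-only (20.9%) than at H3K9ac-only peaks (7.58%), against 29.5% and 58.0% with the full KO lists. With the upper 50% of KO peaks, added after seeing the data, KO HR H3K27ac met 71.3% of H3K27ac-only and 4.66% of H3K9ac-only peaks, and KO HR H3K9ac 1.87% and 18.1%. Without H3K9ac within 5 kb in WT HR, KO HR H3K9ac met 35.5% of H3K27ac-only peaks. The causes of the other shifts were not tested. The shares at KO HR lists thus depend on how many weak KO peaks are kept. No paired analysis was possible because the results come from no test. Sequencing depth is unknown, so a mark below the threshold cannot be told from an absent one.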

Other observations

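Starts of opposite direction within the window of 1 peak, as at paired genes read away from a shared region, were found at 3 of 52 H3K27ac-only peaks at a start (5.77%) and 36 of 303 H3K9ac-only peaks at a start (11.9%), against 12.5% of all ACLY-FLAG peaks at a start, 15.0% of those with both marks and 6.49% of those with neither. Among the named H3K9ac-only regions, Sprtn with Exoc8 and Tmc6 with Tmc8 hold the starts of 2 coding genes.

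Chromosome X held 0 of the 611 single-mark ACLY-FLAG peaks, 1 of 1489 with both marks and 20 of 1566 with neither, and 21 of all 3666. The WT HR lists had 113 of 8252 H3K27ac and 74 of 7593 H3K9ac peaks on that chromosome.

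By ACLY-FLAG signal, KO HR H3K27ac met 54.5% of the H3K9ac-only peaks in the highest 25% of the ACLY-FLAG list (43.5 to 65.2) and 64.4% of those in the lowest 25% (52.9 to 74.4), with overlapping intervals. Over all ACLY-FLAG peaks the shares were 66.3% in the highest and 47.9% in the lowest 25%. They were 98.7% and 97.1% for peaks with both marks, and 14.5% and 12.1% for peaks with neither. KO HR H3K9ac met 27.4% of the H3K27ac-only peaks at either end of the list (17 of 62 and 20 of 73), against 57.0% of all peaks in the highest and 38.3% in the lowest 25%. For this mark the shares were 93.2% and 91.6% for peaks with both marks, and 2.30% and 5.06% with neither. The mix of classes differed between the ends: peaks with both marks were 474 of 917 in the highest and 274 of 914 in the lowest 25%.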
